A study of Homo sapiens with 9 samples.

Results

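The genes described here are 7 histone-modifying enzymes and their partner: the MLL family methyltransferases KMT2A, KMT2B, KMT2C and KMT2D, the acetyltransferases KAT6A (MOZ) and KAT6B (MORF), and MEN1, which encodes menin. They were chosen by gene symbol, each symbol matched 1 entry, and they are 7 of the 78986 genes in the deposited table. No measured value entered the choice. MLL enzymes add methyl groups to lysine 4 of histone H3, the mark of active promoters and enhancers: KMT2A and KMT2B work mainly at promoters and bind menin, whereas KMT2C and KMT2D place the single methyl group found at enhancers. MOZ and MORF acetylate histone H3, and both pathways keep HOX genes active in development. Gain-of-function p53 mutants have been described in other cells as raising the transcription of KMT2A, KMT2D and KAT6A through the transcription factor ETS2, and KMT2B, KMT2C and KAT6B are the close paralogs of those genes.

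RNA was sequenced from stable lines of HEK293T, a human embryonic kidney line in which the endogenous p53 is functionally suppressed, with 3 biological replicates of each line. The lines carried WT p53, G245S p53 (a structural mutant of the DNA-binding domain) or R273H p53 (a mutant of a residue that contacts DNA). All of them, the WT controls included, had been transduced with a lentivirus and were kept in puromycin at 1.5 µg/mL, so the shared background is HEK293T cells with added p53 under selection. The sample labels give the name of the line without its final T and the culture as HEK293T. There was 1 line for each form of p53 and no untransduced line was analysed here, so differences between lines and differences between p53 forms cannot be told apart. The promoter that drives p53 in the stable lines is not given in the sources used here.

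The libraries held between 1486315 and 9667306 counts. WT replicate 3, the smallest, fell below the limit of 4096044 counts that was set at 0.5 times the median of the others, and it was left out of the fits. The 8 libraries fitted held at least 7325514 counts, and a floor of 3 counts was equal to 0.305 to 0.408 CPM (counts divided by the TMM-scaled library total) in them but to 2.09 CPM in WT replicate 3. Of the epithelial keratins, KRT18 was at 58.6 to 68.6 CPM and KRT8 at 9.62 to 12.1 CPM in the 8 libraries, while KRT19, EPCAM and CDH1 did not exceed 3.40 CPM. The summed level of the 5 epithelial markers was 73.2 to 79.97 CPM in WT, 73.5 to 77.1 CPM in G245S and 82.9 to 84.3 CPM in R273H. WT replicate 3 stood apart from them with KRT18 at 159.8 CPM, KRT8 at 54.4 CPM and KRT19 at 33.5 CPM. Of the kidney lineage markers, SALL1 was at 19.9 to 25.9 CPM and PAX2 at 2.18 to 4.86 CPM in the 8 libraries. Of 7 markers of other cell types, CD3E and PECAM1 were at 0 in all 8 libraries. The sum of those 7 markers, mostly COL1A1 and COL3A1, was 26.6 to 40.2 CPM in WT, 18.6 to 36.2 CPM in G245S and 32.3 to 66.3 CPM in R273H, and the part of these markers in the members' values was not tested.

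All 7 members were well expressed, and no member passed an adjusted p of 0.05 in any comparison. In G245S against WT p53, 0 of 7 members and 0.126% of the 15893 genes tested passed. In R273H against WT p53, 0 of 7 members and 0.137% of 16022 genes passed. With both mutants set against WT p53 in 1 fit, 0 of 7 members and 0.201% of 16398 genes passed. Between R273H and G245S, 0 of 7 members and 0% of 15614 genes passed. At an unadjusted p under 0.05, 1 member (KMT2D) stood out in G245S against WT p53, where 6.66% of all genes did. None did in R273H against WT p53 (6.11% of all genes) or in both mutants against WT p53 (6.90% of all genes). Between R273H and G245S the unadjusted p was under 0.05 for 2 members (KMT2B and KMT2D), against 4.75% of all genes. That count was 0 without G245S replicate 1 or R273H replicate 3, 1 without R273H replicate 2, 4 without R273H replicate 1 and 5 without G245S replicate 2. The count of 1 in G245S against WT p53 was 0 without WT replicate 2 or G245S replicate 1 and 2 without WT replicate 1. The comparisons with WT p53 share the same 2 WT libraries. In such bulk samples, fewer cells that express a gene and less RNA per cell cannot be told apart.

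**Figure D1:**
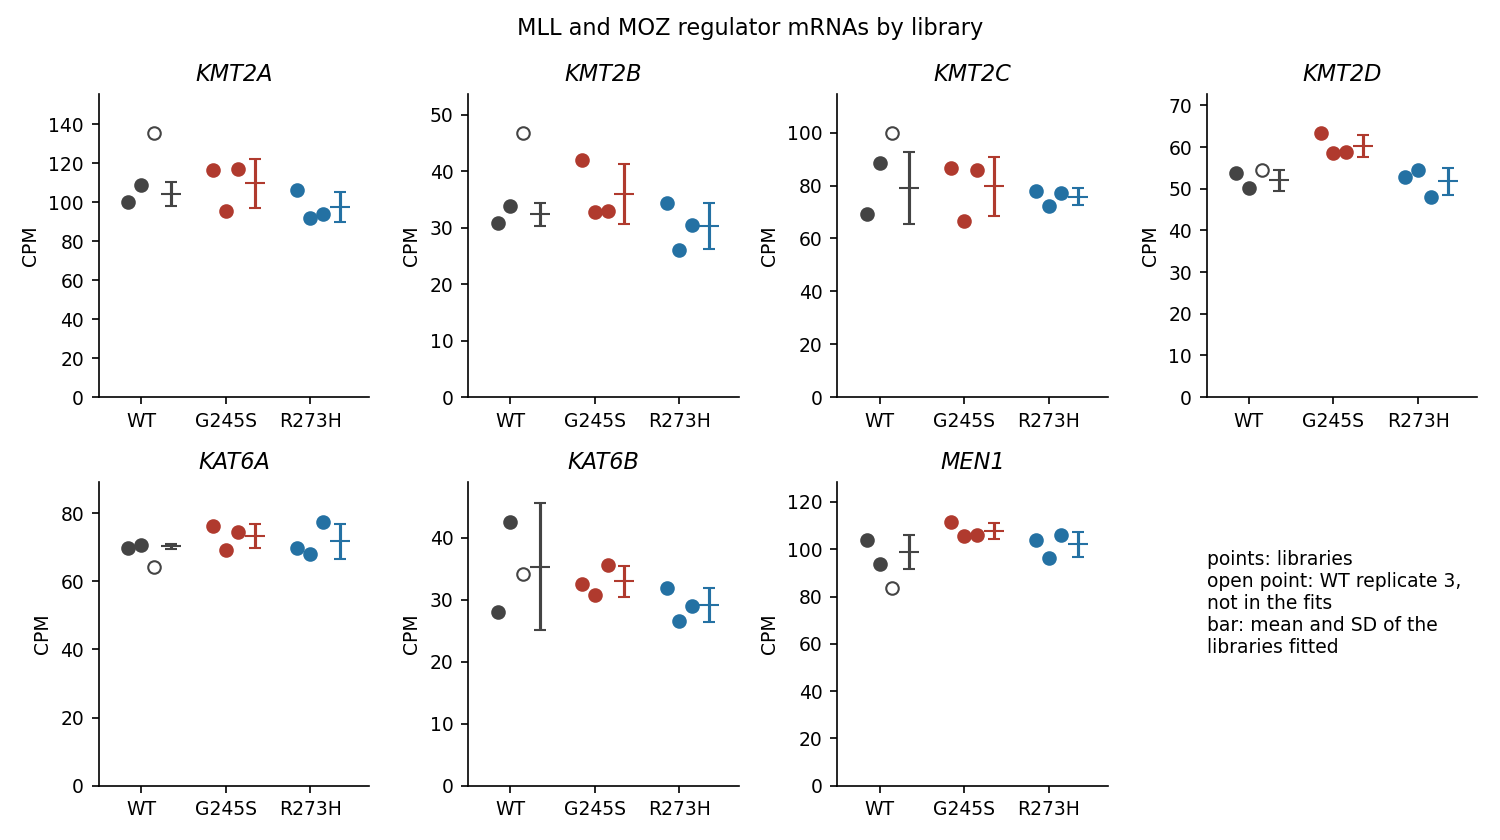
Level of each member in CPM (vertical axes, starting at 0) in each library of WT, G245S and R273H p53 lines, with bars at the mean and SD of the fitted libraries. WT replicate 3, which was not fitted, lies above both other WT libraries for KMT2A, KMT2B, KMT2C and KMT2D, and the 3 G245S libraries of KMT2D lie above every fitted library of the other lines.

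KMT2A encodes the founding MLL methyltransferase, the one broken by translocations in leukaemia. It lies on GRCh38 chromosome 11, plus strand, from 118436456 to 118526832 (ENSG00000118058), and its canonical transcript has 36 exons. It was at 99.9 and 108.6 CPM in the WT libraries fitted, at 117, 95.3 and 117 CPM in G245S replicates 1, 2 and 3, and at 106.3, 91.7 and 94.1 CPM in R273H replicates 1, 2 and 3. The highest libraries were G245S replicates 1 and 3 and the lowest was R273H replicate 2, and the ranges of the groups overlapped. Cells with WT p53 averaged 104.3 ± 6.19 CPM (SD, n = 2), those with G245S 109.6 ± 12.4 CPM (SD, n = 3) and those with R273H 97.4 ± 7.80 CPM (SD, n = 3). Its log2 fold change against WT p53 was 0.082 in G245S (standard error 0.105, 95% interval −0.14 to 0.31, edgeR's adjusted p = 0.929) and −0.094 in R273H (95% interval −0.29 to 0.11, edgeR's adjusted p = 0.972). With WT replicate 3 included, the value for G245S turned to −0.026. That library held 135.4 CPM, with an exact Poisson interval of 117.02 to 155.9 CPM for its 194 counts. A readthrough gene (ENSG00000285827) shares 5755 of its 6447 exon bases with KMT2A on the same strand, and reads in the shared exons cannot be told apart. The same readthrough entry also shares 277 exon bases with ATP5MG, which held 843 to 5477.75 counts per library. The readthrough entry held between 128.5 and 1189.75 counts per library with WT replicate 3 included. How many of its reads came from the exons of KMT2A was not tested. KMT2A itself held between 674 and 1148 counts in the fitted libraries and 194 in WT replicate 3.

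KMT2B, the closest paralog of KMT2A and also a partner of menin, lies on chromosome 19, plus strand, from 35717973 to 35738880 (ENSG00000272333), and its canonical transcript has 37 exons. It was at 30.9 and 33.8 CPM in WT, at 42.0, 32.9 and 33.0 CPM in G245S and at 34.3, 26.1 and 30.4 CPM in R273H. G245S replicate 1 was the highest library and the other G245S libraries lay within the range of WT. The means were 32.4 ± 2.02 CPM (SD, n = 2), 35.97 ± 5.26 CPM (SD, n = 3) and 30.3 ± 4.09 CPM (SD, n = 3). KMT2B gave a log2 fold change of 0.17 in G245S against WT p53 (standard error 0.123, 95% interval −0.095 to 0.43, edgeR's adjusted p = 0.840). Its value in R273H was −0.086 (95% interval −0.34 to 0.17, edgeR's adjusted p = 0.994). Between R273H and G245S the log2 difference was −0.26 (95% interval −0.51 to −0.0056, unadjusted p = 0.0457, edgeR's adjusted p = 0.994). It was −0.12 without G245S replicate 1 (unadjusted p = 0.324) and −0.17 without R273H replicate 2.

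KMT2C, a methyltransferase of enhancers, lies on chromosome 7, minus strand, from 152134922 to 152436644 (ENSG00000055609), with 59 exons in its canonical transcript and 53322 exon bases in all. It was at 69.3 and 88.5 CPM in the WT libraries, at 86.5, 66.6 and 85.8 CPM in G245S and at 78.1, 72.1 and 77.1 CPM in R273H. The lowest library was G245S replicate 2 and the highest WT replicate 2, and all R273H libraries lay between the WT libraries. The means were 78.9 ± 13.6 CPM (SD, n = 2), 79.7 ± 11.3 CPM (SD, n = 3) and 75.8 ± 3.17 CPM (SD, n = 3). Log2 fold changes of KMT2C against WT p53 were 0.026 in G245S (95% interval −0.25 to 0.30, edgeR's adjusted p = 0.983) and −0.054 in R273H (95% interval −0.28 to 0.17, edgeR's adjusted p = 0.997). Both turned with single libraries: the value for G245S was −0.14 without WT replicate 1, −0.045 without G245S replicate 1 and −0.031 without G245S replicate 3, and that for R273H was 0.13 without WT replicate 2. KMT2C has pseudogene copies, but the 6 entries of that name summed to at most 1.17 counts in a library.

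KMT2D, the paralog of KMT2C at enhancers, was the member with the clearest separation of the groups. It lies on chromosome 12, minus strand, from 49018975 to 49060794 (ENSG00000167548), with 55 exons in its canonical transcript. It was at 53.8 and 50.2 CPM in WT, at 63.4, 58.7 and 58.7 CPM in G245S and at 52.8, 54.5 and 48.1 CPM in R273H. All G245S libraries lay above all fitted WT and all R273H libraries, and R273H overlapped WT. WT replicate 3, at 54.4 CPM, lay below the G245S libraries too. The means were 52.0 ± 2.60 CPM (SD, n = 2), 60.3 ± 2.69 CPM (SD, n = 3) and 51.8 ± 3.31 CPM (SD, n = 3). KMT2D differed between G245S and WT p53 by a log2 value of 0.22 (standard error 0.0913, 95% interval 0.025 to 0.42, unadjusted p = 0.0300, edgeR's adjusted p = 0.703), which did not pass. In R273H against WT p53 the log2 fold change was −0.0064 (95% interval −0.20 to 0.19, edgeR's adjusted p = 0.999). Between R273H and G245S it was −0.23 (standard error 0.0807, 95% interval −0.40 to −0.057, unadjusted p = 0.0125, edgeR's adjusted p = 0.951). Groups did not overlap for 2 of 7 members (KMT2D and MEN1) in G245S against WT p53 and for 22.1% of all genes tested. The same held for 0 of 7 members and 20.7% of genes in R273H against WT p53, and for 1 of 7 members (KMT2D) and 9.01% of genes between R273H and G245S. A readthrough gene (ENSG00000288710) shares 661 of its 2968 exon bases with KMT2D on the same strand and 2061 with PRKAG1. It held 51 to 248 counts per library with WT replicate 3 included. KMT2D itself held 392 to 624 counts in the fitted libraries and 78 in WT replicate 3.

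KAT6A, the acetyltransferase MOZ, was the steadiest member, with a coefficient of variation of 4.98% over the 8 libraries. The gene (ENSG00000083168) lies on the minus strand of chromosome 8 from 41929479 to 42051994, and its canonical transcript has 17 exons. It was at 69.8 and 70.8 CPM in WT, at 76.2, 69.3 and 74.4 CPM in G245S and at 69.7, 67.9 and 77.6 CPM in R273H. Both mutant lines straddled the WT libraries. The means were 70.3 ± 0.709 CPM (SD, n = 2), 73.3 ± 3.54 CPM (SD, n = 3) and 71.7 ± 5.13 CPM (SD, n = 3). KAT6A had log2 fold changes of 0.070 in G245S (standard error 0.0887, 95% interval −0.12 to 0.26, edgeR's adjusted p = 0.928) and 0.033 in R273H (95% interval −0.16 to 0.23, edgeR's adjusted p = 0.997).

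KAT6B, the acetyltransferase MORF, had the widest spread, with a coefficient of variation of 15.9% over the 8 libraries, where counting error alone gives 6.19%. It lies on chromosome 10, plus strand, from 74824927 to 75032624 (ENSG00000156650), with 18 exons in its canonical transcript. It was at 28.1 and 42.6 CPM in WT, at 32.6, 30.7 and 35.7 CPM in G245S and at 31.9, 26.5 and 29.0 CPM in R273H. WT replicate 2 lay above every other library and WT replicate 1 was below all G245S libraries. The means were 35.3 ± 10.3 CPM (SD, n = 2), 33.0 ± 2.52 CPM (SD, n = 3) and 29.2 ± 2.69 CPM (SD, n = 3). KAT6B gave the largest log2 fold change of a member in R273H against WT p53, −0.26 (standard error 0.148, 95% interval −0.58 to 0.050, unadjusted p = 0.0934, edgeR's adjusted p = 0.915), and −0.085 in G245S (95% interval −0.40 to 0.23, edgeR's adjusted p = 0.955). Without WT replicate 2 these turned to 0.059 and 0.24.

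MEN1 encodes menin, the scaffold that ties KMT2A and KMT2B to chromatin and a tumour suppressor of endocrine glands. It lies on chromosome 11, minus strand, from 64803510 to 64811294 (ENSG00000133895), with 10 exons in its canonical transcript. It was at 103.9 and 93.7 CPM in WT, at 111.7, 105.7 and 106.1 CPM in G245S and at 104, 96.2 and 105.9 CPM in R273H. All G245S libraries lay above both WT libraries, while R273H replicate 2 lay between them. The means were 98.8 ± 7.23 CPM (SD, n = 2), 107.8 ± 3.36 CPM (SD, n = 3) and 102.03 ± 5.10 CPM (SD, n = 3). Menin transcripts gave log2 fold changes of 0.13 in G245S (standard error 0.0901, 95% interval −0.060 to 0.33, edgeR's adjusted p = 0.828) and 0.049 in R273H (95% interval −0.14 to 0.24, edgeR's adjusted p = 0.997).

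**Figure D2:**
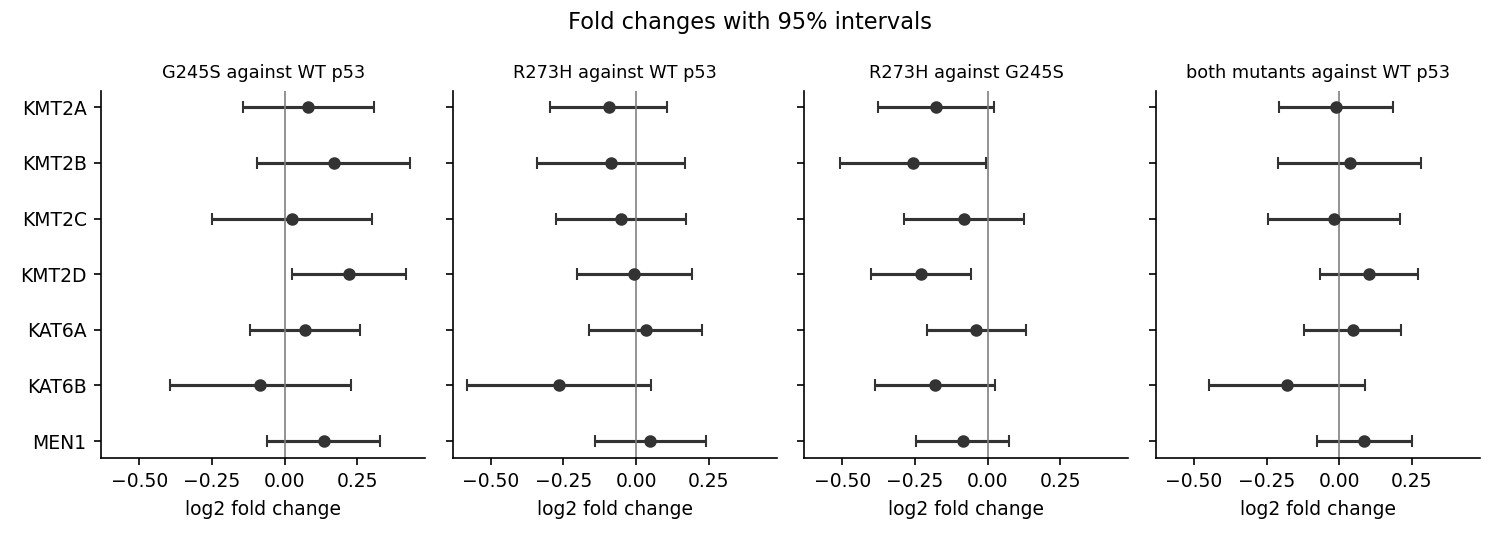
Log2 fold change of each member (points, horizontal axes) with its 95% interval (bars) in the 4 comparisons, from edgeR. The interval leaves out 0 for KMT2D in G245S against WT p53 and for KMT2B and KMT2D in R273H against G245S, and none of these passed after adjustment.

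The 95% intervals give, for each gene alone and without adjustment, the range of fold changes that these libraries leave possible. They do not mark the change needed to pass the adjusted threshold. In the pooled comparison they concern the mean of both mutants. With both mutants against WT p53, where every fitted library enters, the 95% intervals of the 7 members ran from a fold of 0.733 (KAT6B) to 1.22 (KMT2B). For the genes described elsewhere as raised by mutant p53, the intervals of this comparison were 0.867 to 1.14 for KMT2A, 0.955 to 1.21 for KMT2D and 0.920 to 1.16 for KAT6A. In the single mutants the highest bound was a fold of 1.35 (KMT2B in G245S) and the lowest was 0.669 (KAT6B in R273H). The log2 fold changes of the pooled comparison lay between −0.18 (KAT6B, edgeR's adjusted p = 0.868) and 0.10 (KMT2D, edgeR's adjusted p = 0.876).

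By sign, 6 of 7 members were higher in G245S than in WT p53 and 2 of 7 were higher in R273H than in WT p53. Of all genes tested, 49.2% and 49.3% were lower in that order. With all 3 WT libraries, KMT2A (−0.026) and KMT2C (−0.062) turned below 0 in G245S. The median log2 fold change of the members was 0.082 in G245S and −0.054 in R273H, beside medians of 0.0034 and 0.0023 over all genes tested. All 7 members were lower by sign in R273H than in G245S, as were 51.7% of all genes. The median of the members there was −0.18, beside −0.0048 over all genes.

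Length here is that of all annotated exons of a gene together, and single transcripts are shorter (for KAT6B 32495 bases and 8314 in its canonical transcript). It places KMT2A, KMT2C, KMT2D, KAT6A and KAT6B at or above the 98.8th percentile of 10525 protein-coding genes. KMT2B is at 85.5 and MEN1 at 45.0. The 6 members other than MEN1 are called the 6 long members here, although KMT2B, at 10807 bases, is under the limit of 20 kb used below. Libraries also differed in their long genes as a whole. The median deviation of 239 other genes over 20 kb minus that of 4612 genes under 5 kb was −0.11 (log2) in WT replicate 1 and 0.10 in WT replicate 2. It was 0.14, −0.095 and 0.087 in the G245S libraries and 0.023, −0.076 and −0.062 in the R273H libraries. The median deviation of the 6 long members from their means over the 8 libraries was −0.063 and 0.059 in WT, 0.16, −0.051 and 0.12 in G245S and 0.0058, −0.14 and −0.11 in R273H. Across the 8 libraries the 2 measures correlated with Pearson's r = 0.913 and Spearman's rho = 0.786, and r was 0.855 without the 2 libraries farthest from the median. The points share depth and length, so this is a description. By member, r was highest for KMT2C (0.943) and KMT2A (0.904), lower for KAT6B (0.762), KMT2B (0.735), KAT6A (0.445) and KMT2D (0.336), and 0.123 for MEN1.

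**Figure D3:**
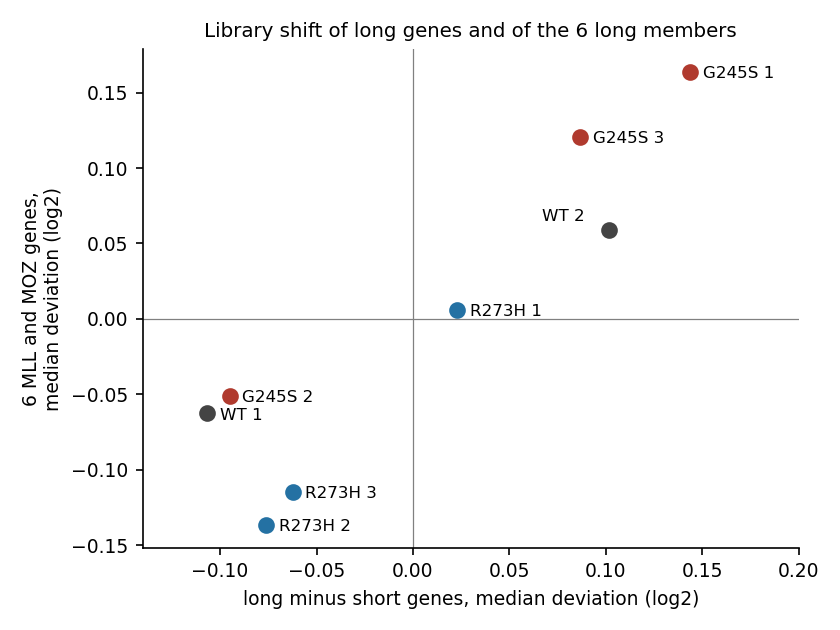
Median deviation of the 6 long members (vertical axis, log2) against the shift of all other long genes relative to short genes (horizontal axis, log2), 1 point for each of the 8 fitted libraries. G245S replicate 1 is highest on both axes and WT replicate 1 is lowest on the horizontal axis.

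With the trend on length removed from each library, an alternative chosen after seeing the data, the log2 difference between R273H and G245S moved from −0.18 to −0.10 for KMT2A and from −0.23 to −0.17 for KMT2D (unadjusted p = 0.0499, edgeR's adjusted p = 0.997). KMT2B stayed at −0.23, from −0.26 (unadjusted p = 0.0393), and KAT6B moved from −0.18 to −0.11. The values of KMT2C and KAT6A turned to 0.022 each, and MEN1 was at −0.095. KMT2D in G245S against WT p53 moved from 0.22 to 0.18 (unadjusted p = 0.0627). The part of the length trend in the members' values was not tested further.

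Of the 21 pairs of members, KMT2A and KMT2C had the highest correlation of log2 levels over the 8 libraries (r = 0.806, and 0.862 after the group means were subtracted). KMT2A and KMT2B followed at 0.774 and KMT2C and KAT6B at 0.765. The lowest pairs, near or below 0, were KMT2C and KMT2D (0.057), KMT2D and KAT6A (0.059), KMT2D and KAT6B (−0.017), KMT2C and MEN1 (−0.019) and KAT6B and MEN1 (−0.25). The remaining pairs lay between 0.17 (KAT6A and KAT6B) and 0.69 (KMT2A and KAT6B). These are descriptions over libraries that share the length shift. Among 11024 genes, those most like each member in log2(CPM + 1) over the 8 libraries were LMX1B (r = 0.989) and DDR2 (0.983) for KMT2A and SPOUT1 (0.987) and C1orf198 (0.968) for KMT2B. For KMT2C they were SNAPC4 (0.984) and FOXO3B (0.974), which is nearly identical to FOXO3 and so uncertain, and for KMT2D they were LLGL1 (0.956) and OGT (0.954). For KAT6A BAIAP2L1 (0.978) was such a gene, for KAT6B they were HERC2 (0.962) and ERCC4 (0.961), and for MEN1 CARD8 (0.968) and DDHD1 (0.965). All were picked for the highest r among 11024 genes over only 8 libraries, so high values follow in part from the picking. Without the 2 libraries farthest from the member's median, r ran from 0.773 for C1orf198 to 0.991 for FOXO3B.

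Levels of different members were set side by side per kilobase of exon, using the length in the deposited table. MEN1 was highest at 20.3 ± 1.13 CPM per kb (SD, n = 8), and no library of another member came near its lowest value of 18.4. KMT2A (3.30 ± 0.316), KMT2B (3.05 ± 0.417) and KAT6A (2.98 ± 0.148) followed as neighbours whose ranges overlapped. KMT2D was at 2.16 ± 0.197, KMT2C at 1.46 ± 0.156 and KAT6B at 0.989 ± 0.157 CPM per kb. The range of KMT2D overlapped that of KMT2B, and the ranges of KMT2C and KAT6B overlapped. Per kilobase of the canonical transcript, an order chosen after seeing the data, MEN1 stayed first at 38.1 CPM per kb, KAT6A came second at 7.86 and KMT2D last at 2.67. The order below MEN1 depends on the length used, and the first place of MEN1 depends on dividing by length at all. In CPM not divided by length, KMT2A averaged 103.7 and MEN1 103.4 over the 8 libraries. The sources used here do not say whether reads spread along the whole transcript.

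The other proteins of these pathways were taken as 11 lists of 72 genes, MEN1 among them, all of which were tested. None passed an adjusted p of 0.05 in any comparison, and at an unadjusted p under 0.05 there were 1 of 72 in G245S, 5 of 72 in R273H, 3 of 72 between the mutants and 3 of 72 in both mutants against WT p53. Over all genes the shares were 6.66%, 6.11%, 4.75% and 6.90%. The lowest adjusted p of edgeR was 0.704, 0.547, 0.921 and 0.540 in that order. The shared core of the MLL complexes (WDR5, RBBP5, ASH2L, DPY30), which every MLL enzyme needs for activity, had a median log2 fold change of 0.0085 in both mutants against WT p53, beside −0.0020 over all genes. ASH2L, the member of this core with the lowest p, had a log2 fold change of 0.15 (edgeR's adjusted p = 0.833). The partners of KMT2A and KMT2B had a median of 0.050, and those of KMT2C and KMT2D, which include the demethylase KDM6A, a median of −0.0045 with PAGR1 at −0.14 (edgeR's adjusted p = 0.817).

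PSIP1 encodes LEDGF, which binds menin and KMT2A and holds them on chromatin. It was at 186.5 and 225 CPM in WT, at 165.9, 154.2 and 190.1 CPM in G245S and at 184.6, 165.5 and 166.7 CPM in R273H. Of the 6 mutant libraries, 5 lay below both WT libraries and G245S replicate 3 lay between them. WT replicate 3 was at 178.7 CPM, within the range of the mutants. The log2 fold change of PSIP1 in both mutants against WT p53 was −0.26 (standard error 0.0937, 95% interval −0.46 to −0.066, unadjusted p = 0.0123, edgeR's adjusted p = 0.540), which did not pass.

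The remaining lists of enzymes lay close to 0 in both mutants against WT p53. The other methyltransferases of histone H3 lysine 4 had a median log2 fold change of −0.053, with SETD1B at −0.12 (edgeR's adjusted p = 0.907). The subunits that form complexes with MOZ and MORF had a median of −0.012, with the scaffold BRPF3 at 0.18 (edgeR's adjusted p = 0.817). Other acetyltransferases had a median of −0.030, with CREBBP at −0.14 (edgeR's adjusted p = 0.821). The demethylases that remove the mark had a median of 0.0097, with KDM1A (LSD1) at 0.059 (edgeR's adjusted p = 0.955). Fusion partners of MLL and elongation factors had a median of 0.040, with the methyltransferase DOT1L at 0.090 (edgeR's adjusted p = 0.934). The cyclin-dependent kinase inhibitors that menin is known to activate, CDKN1B and CDKN2C, had a median of −0.030, with CDKN1B at −0.067 (edgeR's adjusted p = 0.939).

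HOX and MEIS genes are the best known targets of KMT2A and MOZ. Over the 21 of them the median log2 fold change was 0.038 in G245S, −0.14 in R273H and −0.12 between R273H and G245S, and 12, 7 and 4 of the 21 were positive. Of all genes tested, 49.2%, 49.3% and 51.7% were below 0 in that order. At an unadjusted p under 0.05 there were 0 of 21 in G245S (6.66% of all genes), 4 of 21 in R273H (6.11% of all genes) and 3 of 21 between the mutants (4.75% of all genes). HOXA7 had the lowest p in both mutants against WT p53 (log2 fold change 0.29, edgeR's adjusted p = 0.627). It was also among the 4 in R273H against WT p53, and there it was higher. Its log2 fold change in R273H was 0.31 (95% interval 0.044 to 0.57, edgeR's unadjusted p = 0.0251 and adjusted p = 0.754). The rest of those 4 were lower and are given next. The genes that follow were named after their values were seen. HOXA10 was at 96.7 and 103.4 CPM in WT, at 102.8, 99.6 and 90.7 CPM in G245S and at 82.2, 82.2 and 84.8 CPM in R273H. All R273H libraries lay below all fitted libraries of the other lines, although WT replicate 3 was at 83.8 CPM. The log2 fold change of HOXA10 in R273H was −0.27 against WT p53 (unadjusted p = 0.00683, edgeR's adjusted p = 0.564) and −0.24 against G245S (edgeR's adjusted p = 0.921). HOXA5 was at 121.7 and 122.2 CPM in WT, at 159.0, 124.1 and 127.2 CPM in G245S and at 112.3, 88.5 and 109.7 CPM in R273H, again with R273H below the others. Its log2 difference between R273H and G245S was −0.41 (unadjusted p = 0.00177, edgeR's adjusted p = 0.921) and that against WT p53 was −0.23 (edgeR's adjusted p = 0.785). HOXA6, at 13.9 to 28.5 CPM, had a log2 fold change of −0.50 in R273H against WT p53 (unadjusted p = 0.00588, edgeR's adjusted p = 0.547).

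**Figure D4:**
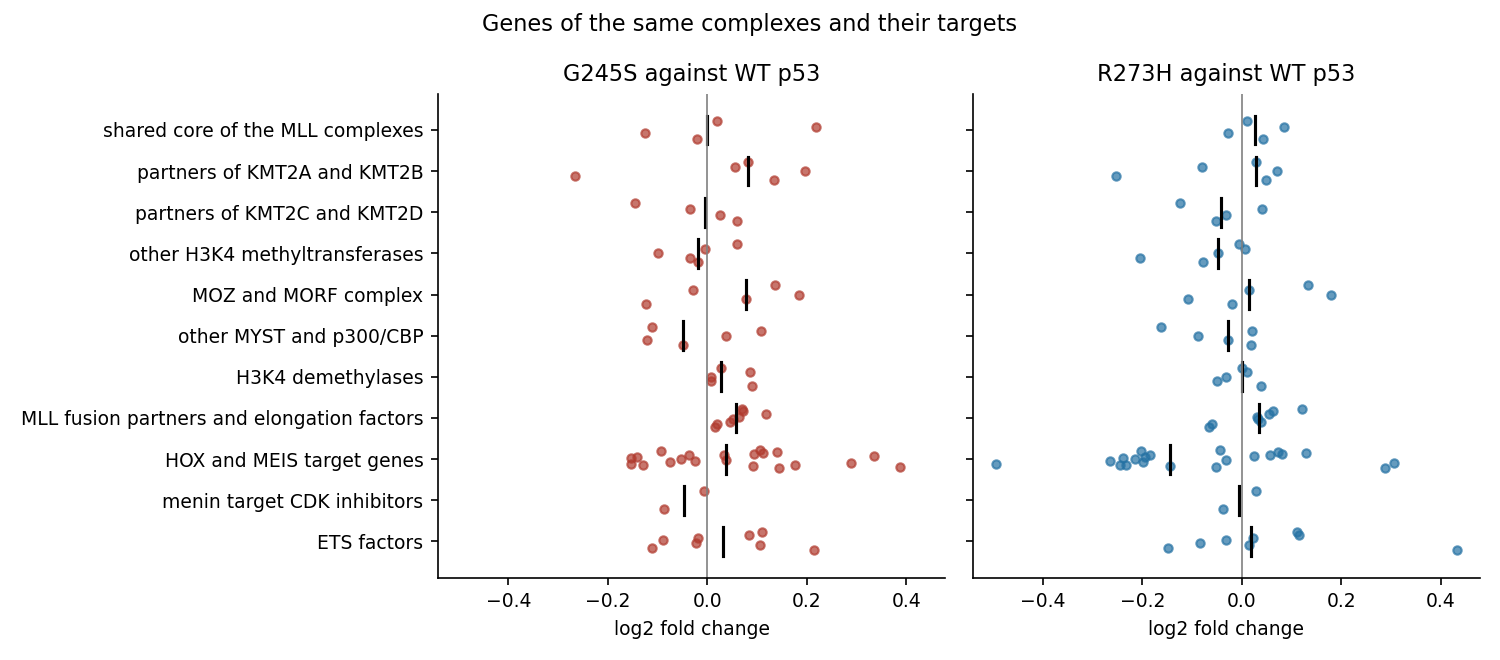
Log2 fold change of the genes of each list (points) with the list's median (bar) in G245S (left) and R273H (right) against WT p53. No gene passed an adjusted p of 0.05, and 7 of the 21 HOX and MEIS genes lie above 0 in R273H against 12 in G245S.

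ETS factors bind the core GGAA, and ETS2 is the factor through which mutant p53 has been described to act on MLL genes. ETS2 was at 16.5 and 18.7 CPM in WT, at 15.4, 18.0 and 15.2 CPM in G245S and at 16.8, 12.4 and 18.0 CPM in R273H. The groups overlapped, and the log2 fold change was −0.11 in G245S (edgeR's adjusted p = 0.924) and −0.15 in R273H (edgeR's adjusted p = 0.976). Over the 8 ETS factors the median in both mutants against WT p53 was 0.026. ETS1 had the lowest p at a level of only 1.60 to 3.81 CPM, with a log2 fold change of 0.32 (95% interval −0.28 to 0.92, edgeR's adjusted p = 0.894).

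The promoters of the members were searched for the ETS words CCGGAA and CGGAAG, which overlap each other, on both strands of RefSeq windows of 300 bases on GRCh38.p14, from 250 before to 50 after a start site. Windows were at hand for 6 of the 7 members, and KAT6A was not searched. CCGGAA was in 17.2% of 35116 windows and, of the members, in that of KMT2A. CGGAAG was in 19.5% of windows and, of the members, in that of KMT2D. Each word was thus in 1 of the 6 members searched. The stretches around these matches are shown because no window of another searched member held either word. Capitals mark the match, which for KMT2A is on the other strand, and the plus strand is printed for KMT2A (chr11:118436414-118436443) and the minus strand for KMT2D (chr12:49060849-49060878).
KMT2A: tggttaggcaggTTCCGGggccccgtgccc
KMT2D: gttaacccggagCGGAAGgatcccgcagcg
The matches begin 66 bases before the start site of KMT2A and 72 bases before that of KMT2D. A match describes the letters only, and no binding was measured here. GC content of the windows was 76.3% for KMT2A, 83.3% for KMT2B, 88.7% for KMT2C and 65.0% for KMT2D. It was 68.0% and 58.3% in the windows of MEN1 and 69.0%, 80.7% and 58.7% in those of KAT6B, beside a median of 58.7% over all windows.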

How the data were processed

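RNA-seq was analysed from 9 libraries, 3 biological replicates each of stable HEK293T lines expressing WT, G245S or R273H p53. The submitters' processing notes name fastp 0.24.0, STAR 2.7.11, SAMtools 1.22.1 and featureCounts of Subread 2.1.1 on GRCh38. The authors removed duplicates by molecular identifier and counted reads strand-specifically, with multi-mapping reads shared as fractions, so what they deposited are expected counts that have not been normalized. Fractional values occurred for KMT2A and KMT2C in 7 libraries each, for KMT2D in 4 and for KAT6B in 3. Another 9 columns of per-sample CPM deposited by the authors in the same table were not used.

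Counts were rounded to whole numbers, filtered with filterByExpr (minimum count 10), scaled by TMM and tested over all genes by quasi-likelihood F-test (edgeR 4.0.16, R 4.3.3) with Benjamini-Hochberg adjustment and a threshold of 0.05. WT replicate 3 was left out by a rule on depth alone. The study's methods leave out 1 WT replicate, which they do not name, for poor sample quality and low reads. P-values measure the spread between these replicates. Intervals and floors from counts cover counting error only. Levels are CPM, and n is 2 for WT. The pipeline was tested on simulated data. Coordinates and exon lengths of the 7 members in the table equalled those of GENCODE v44, in which 61463 of the 78986 identifiers were found.

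All members are named. Of each list, the gene with the lowest unadjusted p in both mutants against WT p53 is named, and others are named as chosen after their values were seen. For each member the 2 genes most like it among genes of at least 5 CPM are named. Some results set out in the plan are not reported here. The members and lists were chosen with earlier results of these data known. The alternatives were other sets of WT libraries, omission of each fitted replicate, DESeq2 1.42.0, scaling by upper quartile or by library size alone, no filter or a minimum of 30 counts, counts rounded down, a replicate block, 1 fit of all 3 groups and, added after seeing the data, removal of each library's trend with gene length and scaling by the canonical transcript. Correlations are given without a p. Tables and plots used version 1.17.8 of the R package data.table, Python 3.11.15, pandas 2.3.3 and matplotlib 3.10.9.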

Additional observations from a re-analysis of the deposited data

Results flagged for a closer look

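Both results here come from WT replicate 3, the library left out of the reported fits for its depth. KMT2A was at 135 CPM in it, and the exact Poisson interval of its 194 counts (117.02 to 155.9 CPM) lay above both fitted WT libraries, which were at 99.9 and 108.6 CPM. KMT2B was at 46.8 CPM in it, and the interval of its 67 counts (36.2 to 59.4 CPM) lay above the fitted WT libraries at 30.9 and 33.8 CPM. The intervals cover counting error only. WT replicate 3 also differed in its markers, with KRT19 at 33.5 CPM against at most 1.36 CPM in the fitted libraries. The part of sample quality or composition in its KMT2A and KMT2B levels was not tested. The other 5 members had intervals that reached or included the range of the fitted WT libraries.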

How the results depend on the processing

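No member passed the threshold in the main fits or in any alternative. Of 476 log2 values of the members under the alternatives, 432 kept their sign and 44 turned it, all among values that had not passed, and the cause was not tested.

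The count of all genes called in G245S against WT p53 (20) was 10 with all 3 WT libraries, 3 with WT replicates 1 and 3, 144 with no filter on low counts, and 10 to 30 leaving out 1 replicate (13 without WT replicate 2 and 10 without G245S replicate 3). In R273H against WT p53 (22) it was 4 with WT replicates 1 and 3, 13 with WT replicates 2 and 3, 93 with no filter and 16 to 29 leaving out 1 replicate. Between R273H and G245S (0, with 741 genes at an unadjusted p under 0.05) it was 1 by DESeq2, 125 with no filter and 0 to 3 leaving out 1 replicate (3 without G245S replicate 2 and 1 without R273H replicate 3). In both mutants against WT p53 (33) it was 14 with WT replicates 1 and 3, 122 with no filter and 17 to 36 leaving out 1 replicate (17 without WT replicate 2).

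Libraries of the same number in G245S and R273H correlated at 0.27, 0.37 and 0.023 in their deviations from the group means, beside −0.33 to 0.13 for unlike numbers, and 2 of 3 R273H libraries correlated best with their own number. The 2 fitted WT libraries deviate as mirror images and so do not bear on it. Since 1 of the 3 pairs was near 0 and no label gives a shared batch, the numbers were not taken as a pairing. With a replicate block, the counts were 76, 47, 59 and 38 in the order above. The block turned KMT2C in G245S to −0.032, KMT2D in R273H to 0.047 and KAT6A in R273H to −0.027, and no member passed, but 4 were at an unadjusted p under 0.05 between the mutants.

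Other WT libraries turned these log2 fold changes. In G245S against WT p53, KMT2A was −0.026 with all 3, −0.053 with replicates 1 and 3 and −0.12 with replicates 2 and 3. KMT2C was −0.062, −0.0070 and −0.21 in that order, KAT6B was 0.15 with replicates 1 and 3 and KMT2B −0.051 with replicates 2 and 3. In R273H, KMT2D was 0.0079 with replicates 2 and 3. In both mutants against WT p53, KMT2B was −0.059, −0.081 and −0.17, and KAT6B was 0.070 with replicates 1 and 3. Scaling by library size alone turned KMT2D in R273H to 0.017 and KMT2A in both mutants to 0.0046. Removing the length trend turned KMT2C in G245S to −0.038, KMT2D in R273H to 0.015, and KMT2C and KAT6A between the mutants to 0.022 each.

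Leaving out 1 replicate in turn, the log2 fold change in G245S against WT p53 ran from −0.14 to 0.21 for KMT2C and from −0.36 to 0.24 for KAT6B. In R273H against WT p53 it ran from −0.19 to 0.0064 for KMT2B, −0.22 to 0.13 for KMT2C, −0.057 to 0.047 for KMT2D, −0.027 to 0.070 for KAT6A, −0.54 to 0.059 for KAT6B and −0.025 to 0.13 for MEN1. In both mutants it ran from −0.064 to 0.052 for KMT2A, −0.031 to 0.10 for KMT2B, −0.18 to 0.17 for KMT2C and −0.45 to 0.15 for KAT6B. A lone WT library was assumed to vary like the mutant libraries. Between the mutants it ran from −0.36 to −0.12 for KMT2B. KMT2D kept its sign in G245S against WT p53 (0.16 to 0.28) and between the mutants (−0.27 to −0.17) under every alternative.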
